A study of Mus musculus with 5 samples.

Results

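The carbonic anhydrases described here are the 10 genes Car1, Car2, Car3, Car4, Car8, Car9, Car11, Car12, Car13 and Car14, of 23279 genes measured in the embryonic mouse heart at E10.5. They were chosen by family name for a comparison of knockout with control hearts, with earlier results of that comparison known, so their levels and differences are given as a description and without p-values. Each had 1 probe set, so the rule that keeps the brightest set of a gene removed nothing, and 9 of the 10 lay above the level under which genes were treated as dim (a mean over the 5 arrays under a log2 level of 4.44); Car1 was dim. The knockout group holds 2 arrays of hearts labelled KO and the control group 3 arrays of hearts labelled Control, all of untreated embryonic heart. The series title names LRRFIP2, but the labels give no allele, strain, Cre line or control genotype, and leave it unstated if hearts were pooled, so part of the spread between samples may be technical.

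Carbonic anhydrases convert carbon dioxide and water to bicarbonate and a proton, and back, with a zinc ion in the active site. Cytosolic forms serve gas transport in red cells and pH control inside cells. Membrane-bound forms hold their active site outside the cell, where they work beside bicarbonate transporters and lactate carriers, and a further kind lacks residues needed to bind zinc and has no such activity. Car9 is a well known target of the hypoxia-inducible factors (HIF), which accumulate when oxygen is low, and the human CA9 gene has a binding site for them next to its transcription start.

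The series itself can be described briefly. Values are log2 levels after RMA, a method that corrects, equalises and summarises Affymetrix arrays, and a difference of 1 is a doubling. Array medians were 5.07 to 5.11, and arrays correlated at 0.986 to 0.996 over all probe sets, with the lowest value between the knockout arrays. Lrrfip2 was at 6.36 and 6.22 on the knockout arrays, against 7.33, 8.07 and 8.08 on the control arrays. All 10 cardiomyocyte markers were above the dim level, with a mean level of 11.2 and 11.1 on the knockout arrays and 11.2 on each control array. Knockout replicate 2 also carried endoderm marker transcripts, of a source that was not tested. The mean of 11 of the 13 measured markers was 8.03 there, against 4.65 on knockout replicate 1 and 4.70 to 4.81 on the controls. The other 2, Alb and Fga, were dim by their mean over the 5 arrays but were at 7.07 and 5.29 on knockout replicate 2, against 3.03 and 3.07 on knockout replicate 1. Of the 11, Afp, Apob and Fgb passed the dim level only through knockout replicate 2, where they were at 11.42, 6.84 and 8.46. On every other array these genes lay between 3.47 and 4.07, so the mean of the 11 partly reflects how they were kept. Knockout replicate 1 had the highest macrophage marker mean, 5.96, against 5.25 on knockout replicate 2 and 5.23 to 5.42 on the controls, over 6 of 10 markers. Among the 6, Tyrobp (7.65), Fcer1g (6.25) and Csf1r (5.26) were highest on knockout replicate 1. C1qa was lowest there, at 4.85, and C1qb and Cd68 were highest on control replicate 3. Adgre1, Aif1, Mrc1 and Ptprc were dim by their mean. Aif1 was at 4.90 and Ptprc at 4.25 on knockout replicate 1, against 4.15 and 3.16 on knockout replicate 2. Mrc1 went the other way, at 4.06 and 4.46, and Adgre1 was at 4.15 on all arrays. The part of endoderm or macrophage transcripts in the values below was not tested. The number of arrays limits the precision: with 2 against 3, no permutation p can fall below 0.1.

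RefSeq promoter windows of GRCm38.p6, from 250 bases before to 50 after a transcription start, were found for 5 of the 10 genes: Car4, Car9, Car11, Car12 and Car14. All 5 are shown because they had a window, and their levels were not used to choose them. For Car11 the sequence is that of the second of its 2 starts. The sequences run from 80 bases before the start to 20 bases after it, in the direction of transcription. Capitals mark matches to either of the core letters of the HIF binding motif, ACGTG or GCGTG, on either strand.
Car4, chr11:84957674-84957773 (plus strand): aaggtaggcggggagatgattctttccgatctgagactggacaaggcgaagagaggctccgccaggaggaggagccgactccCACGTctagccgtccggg
Car9, chr4:43506946-43507045 (plus strand): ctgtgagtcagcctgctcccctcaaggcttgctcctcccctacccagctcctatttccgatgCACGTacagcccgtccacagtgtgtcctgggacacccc
Car14, chr3:95904666-95904765 (minus strand): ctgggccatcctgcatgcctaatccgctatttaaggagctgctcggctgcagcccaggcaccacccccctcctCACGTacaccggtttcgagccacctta
Car11, chr7:45699887-45699986 (plus strand): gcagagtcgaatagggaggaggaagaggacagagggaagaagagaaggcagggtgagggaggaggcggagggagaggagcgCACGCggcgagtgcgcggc
Car12, chr9:66713606-66713705 (plus strand): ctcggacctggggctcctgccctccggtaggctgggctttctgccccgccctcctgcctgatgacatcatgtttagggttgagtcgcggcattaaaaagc
Car9 had ACGTG on the opposite strand at bases -18 to -14, counted back from -1 just before the start. Car14 had it on the opposite strand at -7 to -3, and Car4 had it at bases 3 to 7 after the start, again on the opposite strand. Car11 has RefSeq windows for 2 starts, and each held GCGTG on the opposite strand, at -218 to -214 from the first start and at bases 2 to 6 of the second. The Car12 window held neither. None of these matches lies inside the longer palindrome CACGTG. Such matches are common: of 32851 RefSeq windows of 300 bases, 19.6% held ACGTG, 32.4% held GCGTG and 43.8% held either. A match is a description of letters and not a bound site.

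**Figure D1:**
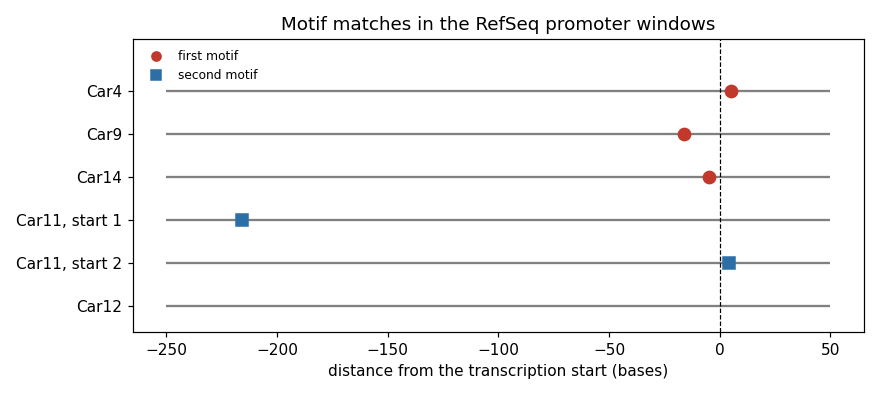
Matches to the HIF core motif along the RefSeq promoter windows of 5 carbonic anhydrase genes; the x axis is the distance from the transcription start in bases, circles are ACGTG and squares GCGTG, on either strand. Car4, Car9 and Car14 have a circle within 20 bases of the start, Car11 has a square in each of its 2 windows, and Car12 has no mark.

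Over the whole family, the knockout and control levels did not overlap for 6 of the 10 members, 4 of them higher and 2 lower in the knockout. Among all 13967 genes tested, 21.3% had no overlap, 8.18% higher and 13.1% lower in the knockout; the members were chosen with this contrast known, so nothing is read from these shares. A difference of at least 1.5-fold was present for 3 members (Car4 and Car9 higher, Car2 lower) and for 3.34% of all genes tested. The membrane-bound members Car4, Car9 and Car14 were higher and the cytosolic members Car2 and Car3 lower. Neither class moved as a whole: the log2 differences of the membrane-bound Car12 and the cytosolic Car13 and Car1 were -0.01, -0.02 and -0.02.

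**Figure D2:**
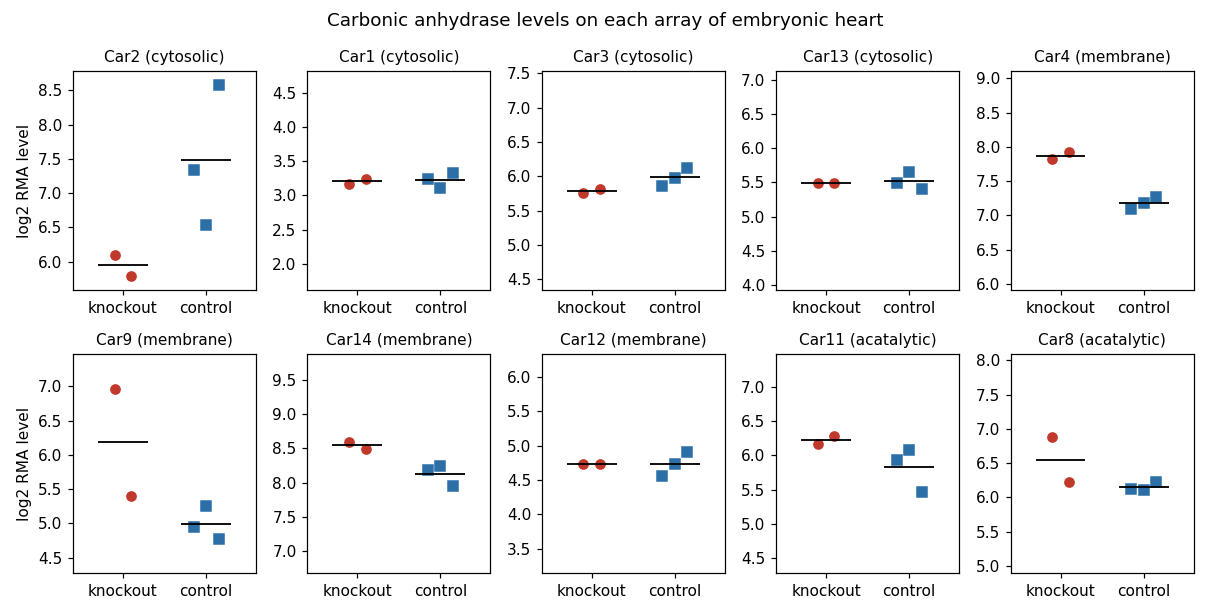
Log2 RMA level (y axis) of each carbonic anhydrase on the 2 knockout arrays (circles, left) and 3 control arrays (squares, right), with lines at the group means and the same span of log2 units in each panel. Car4 and Car14 form tight groups that do not overlap, Car2 is spread widely over the controls, and Car9 is spread widely over the knockout arrays.

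Car4 had the most even difference among the members with a fold of at least 1.5. Car4 is tethered to the outer face of the membrane by a lipid anchor and is known from capillary endothelium and from heart muscle. Its level was 7.83 and 7.92 on the knockout arrays, against 7.10, 7.18 and 7.27 on the control arrays. Both knockout values lay above every control value, by at least 0.56. Knockout hearts averaged 7.87 ± 0.07 (SD, n = 2) and controls 7.18 ± 0.08 (SD, n = 3), a log2 difference of 0.69 ± 0.07 (SE) or 1.62-fold. Leaving out any 1 array kept the difference between 0.65 and 0.74. Of 9 endothelial and endocardial markers, 5 were higher and 4 lower in the knockout, and the median shift of the list from the control mean was 0.24 on knockout replicate 1 and -0.0039 on knockout replicate 2, against -0.17 to 0.12 on the controls. Within the list, Kdr, Pecam1 and Cdh5 were higher on both knockout arrays than on any control array, with differences of 0.60, 0.52 and 0.20, and Nfatc1 was lower on both, with a difference of -0.35. The part of endothelial cells in the Car4 values was not tested.

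Car9, a transmembrane enzyme that acidifies the space outside cells low in oxygen, was high on 1 knockout array. Its level was 6.97 and 5.41 on knockout replicates 1 and 2, against 4.94, 5.26 and 4.77 on the control arrays. Knockout replicate 2 exceeded the highest control by 0.15, which is less than the control range of 0.49. Knockout hearts averaged 6.19 ± 1.10 (SD, n = 2) and controls 4.99 ± 0.25 (SD, n = 3), a log2 difference of 1.19 ± 0.53 (SE) or 2.29-fold. It was 0.41 without knockout replicate 1 and 1.97 without knockout replicate 2. The knockout arrays stood 1.56 apart for Car9, and 0.566% of all genes tested had knockout arrays at least that far apart.

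Most other HIF targets were higher on both knockout arrays than on any control array, 17 of the 18 tested. The list held 22 targets, of which 20 were measured. All 18 had higher knockout means, and their median difference was 1.38, against -0.02 over all genes tested; 0 passed an adjusted p of 0.05 in limma, as did 0% of all genes, and 16 had an unadjusted p under 0.05, all higher, against 3.29% of all genes higher by that rule. The list was made with these results known and is no independent evidence. Its median shift from the control mean was 1.51 and 1.28 on knockout replicates 1 and 2, against -0.08 to 0.01 on the controls. A list median evens out single genes and is not comparable with the spread of Car9. Among single targets, Egln3 was at 9.29 and 7.97 and Bhlhe40 at 9.63 and 8.46 on knockout replicates 1 and 2. Others were even, such as Egln1 at 9.66 and 9.70. The targets with the smallest p were the vasodilator peptide gene Adm (difference 1.48 ± 0.10, SE), Ndrg1 (2.37 ± 0.19) and the oxygen-sensing hydroxylase Egln1 (0.85 ± 0.07), with limma adjusted p of 0.287, 0.333 and 0.333.

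Car12, a transmembrane enzyme induced by low oxygen in human tumour cells, did not differ in this way. Its level was 4.73 on both knockout arrays, against 4.56, 4.73 and 4.91 on the control arrays. The knockout values sat in the middle of the controls, and control replicate 2 had exactly the same value. The difference was -0.01 ± 0.12 (SE). The lowest of the 5 values lay just above the dim level.

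Car14, a transmembrane form known from mouse heart, liver and kidney, was higher on both knockout arrays. Its level was 8.60 and 8.49 on the knockout arrays, against 8.19, 8.25 and 7.95 on the control arrays. The lowest knockout value was 0.24 above the highest control value. Knockout hearts averaged 8.54 ± 0.08 (SD, n = 2) and controls 8.13 ± 0.16 (SD, n = 3), a log2 difference of 0.42 ± 0.11 (SE) or 1.33-fold, and it was 0.33 without control replicate 3 and 0.47 without control replicate 2.

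**Figure D3:**
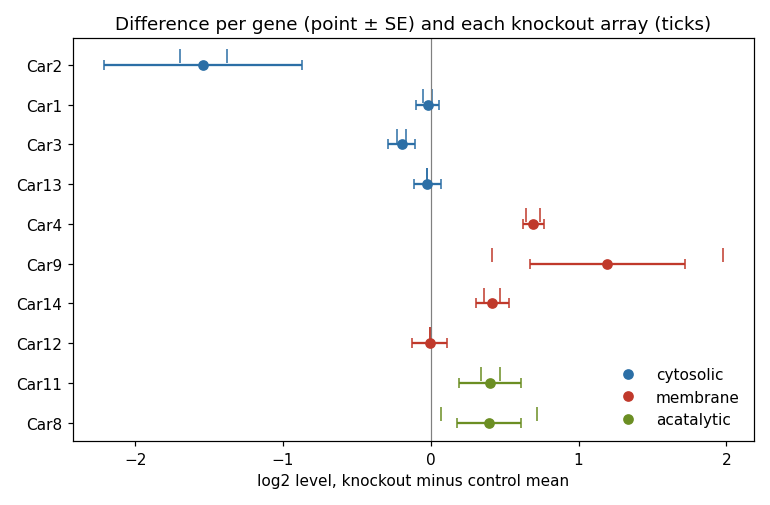
Log2 difference of each carbonic anhydrase between knockout and control hearts (x axis; points are the difference of group means, bars ± SE, ticks each knockout array minus the control mean), coloured by where the enzyme acts. Car4 and Car14 have ticks close together at 0.65 and 0.74 and at 0.36 and 0.47, while the ticks of Car9 stand at 0.41 and 1.97.

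Car2, the fast cytosolic enzyme abundant in red cells, had the largest difference in size of the 10 members and also the widest control range. Its level was 6.11 and 5.79 on the knockout arrays, against 7.33, 6.54 and 8.59 on control replicates 1, 2 and 3. The groups did not overlap, with a gap of 0.44, but the controls ranged over 2.04, and 0.0931% of all genes tested had a control range that wide. Knockout hearts averaged 5.95 ± 0.23 (SD, n = 2) and controls 7.49 ± 1.03 (SD, n = 3), a log2 difference of -1.54 ± 0.67 (SE), or 2.91-fold lower. Without control replicate 3 the difference was -0.99.

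Red cell genes varied over the same arrays. The anion exchanger Slc4a1, which carries bicarbonate across the red cell membrane, was at 6.12 and 7.03 on the knockout arrays, against 7.83, 6.82 and 9.34 on the control arrays. The red cell gas channel gene Rhag was at 5.002 and 4.705 on the knockout arrays, against 5.72, 5.11 and 6.93 on the control arrays. For Car2 and Rhag control replicate 3 was highest, then control replicates 1 and 2, then knockout replicates 1 and 2. Of 10 listed erythroid markers 7 were measured, all above the dim level; all 7 had lower knockout means (median -0.29), and 0 reached an unadjusted p under 0.05 in limma. Their mean level was 8.17 and 8.25 on the knockout arrays, against 8.59, 8.04 and 9.24 on the control arrays; this mean overlapped between the groups. Klf1, a transcription factor gene of red cell precursors, was the only marker of the 7 without overlap, lower in the knockout by 0.47. Among all genes tested, 21.3% had no overlap. The listed globin genes Hba-x, Hbb-bh1 and Hbb-y overlapped, with differences of -0.29, -0.22 and -0.17. Gata1 also overlapped, at 5.79 and 5.78 on the knockout arrays, against 5.61, 5.57 and 6.61 on the control arrays. The globin gene Hbb-b1, which is not on the list and was chosen after its values were seen, was lower without overlap. Its difference was -2.18 ± 0.47 (SE), with a limma adjusted p of 0.415. In such bulk samples, the number of red cells and their RNA per cell cannot be told apart, and the part of red cells in the Car2 values was not tested.

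**Figure D4:**
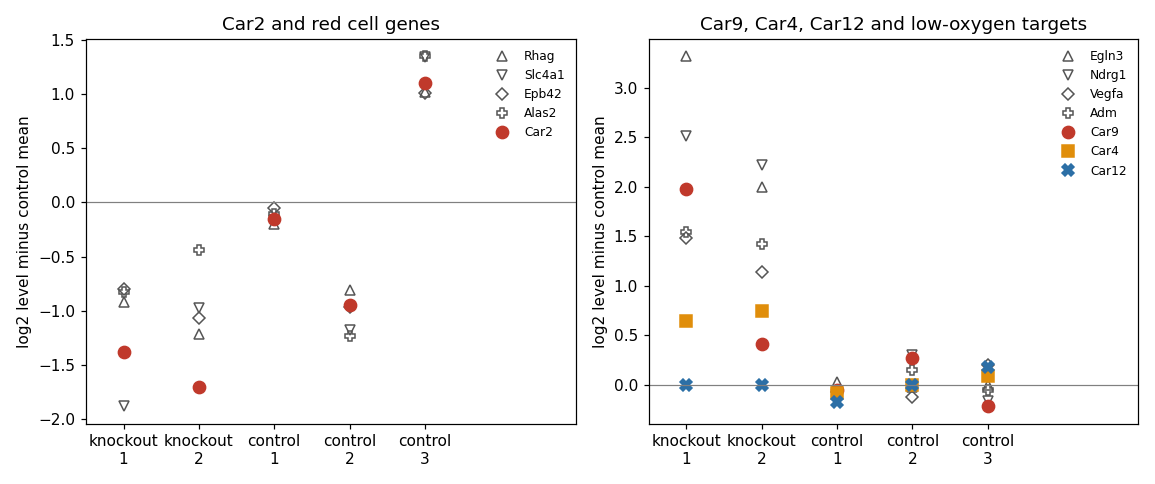
Log2 level on each array minus the control mean of the gene (y axis), for Car2 with 4 red cell genes (left) and for Car9, Car4 and Car12 with 4 low-oxygen target genes (right). Car2 and the red cell genes are highest on control replicate 3; the 4 low-oxygen targets are above the controls on both knockout arrays, with Car9 at 1.97 and 0.41 and Car12 at -0.01 on both.

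Car2 lies in a row of carbonic anhydrase genes on chromosome 3. In GRCm38.p6 the order of protein-coding genes there is Car13, Car1, Car3 and Car2, with no other between them. The neighbours of Car2 did not share its size of difference. Car3, a slow form typical of skeletal muscle and fat, was at 5.76 and 5.82 on the knockout arrays, against 5.86, 5.98 and 6.12 on the control arrays. Its groups did not overlap, but the gap was 0.04 and the difference -0.20 ± 0.09 (SE); without control replicate 3 it was -0.13. Car13, a cytosolic form found in many tissues, was at 5.49 on both knockout arrays, against 5.49, 5.66 and 5.40 on the control arrays, so the knockout values lay within the controls (difference -0.02 ± 0.09, SE). Car1, the other red cell form, was dim on all arrays, at 3.17 and 3.23 on the knockout arrays, against 3.24, 3.11 and 3.33 on the control arrays. Car14 is also on chromosome 3, away from this row.

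The 2 members without enzyme activity had somewhat higher knockout means. Car11, a secreted protein known mainly from brain, was at 6.16 and 6.29 on the knockout arrays, against 5.93, 6.08 and 5.47 on the control arrays. The groups did not overlap, with a gap of 0.09 that is small beside the control range of 0.61. The difference was 0.40 ± 0.21 (SE), and 0.22 without control replicate 3. Car8, which binds an inositol trisphosphate receptor and is best known from Purkinje cells, was at 6.88 and 6.22 on knockout replicates 1 and 2, against 6.13, 6.11 and 6.22 on the control arrays. Knockout replicate 2 had exactly the value of control replicate 3, so the groups touch. The difference of 0.39 ± 0.22 (SE) was 0.07 without knockout replicate 1 and 0.72 without knockout replicate 2. Of 8 neural and neural crest markers, 7 were measured and 5 above the dim level; their mean was 5.42 and 5.20 on the knockout arrays, against 5.38 to 5.55 on the controls.

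The arrays on which members were high were not the same. Car9 and Car8 were higher on knockout replicate 1 than on knockout replicate 2, by 1.56 and 0.65, and 6.59% of all genes tested had knockout arrays as far apart as those of Car8. Car4, Car11 and Car14 had knockout arrays within 0.13 of each other. Car12 and Car13 had equal values on both knockout arrays. Exact ties are common in these values: 54.8% of the genes tested, and Car8, Car12 and Car13 among the members, had a value shared by at least 2 arrays.

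For the 3 members with the largest differences, the genes with the most similar pattern were found by the root mean square distance over the 5 arrays, after subtracting each gene's control mean. Nearest to Car2 were Rhag (distance 0.31), Hemgn (0.33) and Kel (0.37). Nearest to Car9 were 1700034I23Rik (0.15), Lst1 (0.17) and Abhd18 (0.17). Nearest to Car4 were Vmn1r175 (0.08), Sdc4 (0.08) and Psat1 (0.08). The distances of Car2 are larger than those of Car4 beside a pattern that itself spans more.

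The rest of the family was also measured, and its counts are no contrast with the members, which were given no p-values. Of Car5a, Car5b, Car6, Car7, Car10 and Car15 and of the receptor phosphatases Ptprg and Ptprz1, which carry a carbonic anhydrase-like domain, Car7, Car15 and Ptprg were above the dim level. The median difference of these 3 was 0.03, and 0 passed the adjusted threshold in limma, as did 0% of all genes. At an unadjusted p under 0.05 there were 0, against 8.78% of all genes, and 3 genes are too few to compare with that share. Ptprg was at 7.37 and 7.47 on the knockout arrays, against 7.37, 7.37 and 7.34 on the control arrays. Car15, another lipid-anchored form, was at 5.37 and 5.36 on the knockout arrays, against 5.35, 5.37 and 5.40 on the control arrays. The mitochondrial forms Car5a and Car5b were dim, at 3.87 to 4.17 on the knockout arrays and 3.94 to 4.07 on the control arrays.

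Genes that move bicarbonate and acid across membranes were then examined, in lists made with earlier results known. Of 13 bicarbonate transporters, 12 were measured and 5 tested. All 5 had lower knockout means, with a median of -0.27, as had 7744 of all 13967 genes tested, with a median of -0.02 over all genes. The median shift of the 5 from the control mean was -0.54 on knockout replicate 1 and 0 on knockout replicate 2. In limma 0 of the 5 had an adjusted or an unadjusted p under 0.05, against 5.49% of all genes lower by the unadjusted rule. Slc4a1 is among the 5, and the sodium bicarbonate cotransporter Slc4a4 was at 6.889 and 6.973 on the knockout arrays, against 6.996, 6.994 and 6.828 on the control arrays. The exchanger Slc4a2 was at 5.79 and 6.47 on the knockout arrays, against 6.39, 6.39 and 6.43 on the control arrays, so that knockout replicate 1 alone stood low.

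Of 13 genes of acid extruders, carriers and their partner proteins, 12 were measured and 9 tested. Among the 9, Bsg, Emb, Slc9a3r1 and Slc9a3r2 encode partner proteins. The 9 had 6 higher, 3 lower, a median of 0.15 and 0 past the adjusted threshold. At an unadjusted p under 0.05 in limma there was 1 of the 9, against 8.78% of all genes tested, so nothing is read from this count. That gene was Bsg, which encodes the partner that brings lactate carriers to the cell surface. Bsg was at 11.15 and 10.68 on the knockout arrays, against 10.26, 10.33 and 10.52 on the control arrays. Both knockout values were above the controls, with a difference of 0.55 ± 0.18 (SE) and a limma adjusted p of 0.539. The lactate exporter Slc16a3 was at 8.43 and 8.97 on the knockout arrays, against 8.44, 8.44 and 8.16 on the control arrays, and Slc16a1 was at 7.76 and 7.67 on the knockout arrays, against 7.69 on each control array. Of 10 gas channels and sensors of acid or bicarbonate, 9 were measured and 5 tested. Among these, 2 had higher and 3 lower knockout means (median -0.01). In limma 0 had an adjusted or unadjusted p under 0.05, against 0% and 8.78% of all genes tested. The water channel Aqp1, which also passes carbon dioxide, was at 5.31 and 5.34 on the knockout arrays, against 5.34, 5.34 and 5.51 on the control arrays.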

How the data were processed

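Expression was measured on Affymetrix arrays, 2 of knockout and 3 of control hearts. The values are log2 levels that the authors deposited as 1 table, made with Affymetrix Expression Console and RMA per the submitters' processing notes; the sources used here name no version, setting or genome build. Of 24479 probe sets, 23281 carry 1 gene symbol in the platform annotation, and 23156 of those took their symbol from the RefSeq table of GRCm38.p6. The brightest set of a gene was kept, and genes whose 5-array mean fell below the 40th percentile were left out as dim. Groups were compared with limma 3.58.1 in R 4.3.3 (lmFit, eBayes, two-sided, no covariate) over all 13967 other genes, with Benjamini-Hochberg adjustment and a threshold of 0.05. SEs are from this fit; for the dim Car1 the fit ran over all 23279 genes. It was tested on simulated data.

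Members, lists and tests were chosen with earlier results of these data known. Named genes are the members, Lrrfip2, list genes past the adjusted threshold, up to 3 of each list with the smallest unadjusted p under 0.05, and the 3 most similar genes for each of 3 members; other genes named were chosen after their values were seen. Alternatives were the dim filter, variance prior, renormalization, centring, averaging of probe sets, the call rule and leaving out each array. List genes without a value are not analysed here.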

Additional observations from a re-analysis of the deposited data

How the results depend on the processing

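The count of 0 genes past the adjusted threshold stayed at 0 under the other dim filters, variance prior, normalization, centring and probe set averaging, and without any 1 control array. It was 9 without knockout replicate 1 and 983 without knockout replicate 2, where the lone knockout array is assumed to vary like the controls, and 259 genes had an unadjusted p under 0.05 with a fold of at least 1.5. Leaving out each array in turn gave 0 to 6 HIF targets and 0 to 1 bicarbonate transporters past the adjusted threshold, the highest counts both without knockout replicate 2; without knockout replicate 1 there was 1 HIF target. The cause was not tested. Members without overlap numbered 6 to 7 in these runs. Leaving out an array could not lower this count, and the dim filter, variance prior and probe set averaging have no effect on it. Only renormalization and centring could have lowered it. Member differences cannot change with the dim filter, variance prior or probe set averaging, as each member had 1 probe set. Of 110 recomputed member differences, these fixed ones included, 106 moved by under 1 residual SD of the gene. The other 4 were those of Car8 and Car9 without a knockout array, given above. The sign changed in 4, all of Car1, Car12 or Car13. Car2 moved by under 1 SD in every run, though its difference was -0.99 without control replicate 3 and -2.01 without control replicate 2. Bsg no longer had an unadjusted p under 0.05 when any 1 control array was left out. No paired analysis was possible because the sample numbers in the labels are not shared between the groups. Without raw signals, it is unknown how far dim genes such as Car1 stood above background.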

Other observations

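Some markers of the cell types that carbonic anhydrases are known from had an unadjusted p under 0.05 in limma, and 0 passed the adjusted threshold. Among all genes tested the shares were 8.78% and 0%, so nothing is read from the marker counts. The erythroid, endoderm and macrophage lists had 0 at either rule. The vascular growth factor receptor gene Kdr was at 8.44 and 8.23 on the knockout arrays, against 7.94, 7.72 and 7.57 on the control arrays (difference 0.60 ± 0.14, SE). The endocardial factor gene Nfatc1 was at 6.69 and 6.47 on the knockout arrays, against 7.01, 7.01 and 6.76 on the control arrays (-0.35 ± 0.12). Of 8 epicardial markers, 3 were under that p with a list median of 0.01: the keratin Krt19 (1.697 ± 0.325) and the transcription factor gene Wt1 (0.30 ± 0.09) were higher in the knockout and Upk1b (-0.38 ± 0.12) lower. The atrial myosin gene Myh6 (-0.22 ± 0.07) was the 1 cardiomyocyte marker under it, and the tubulin gene Tubb3 (-0.80 ± 0.18) the 1 neural marker. Of 6 skeletal and pharyngeal muscle markers, 4 were tested, with a median of -0.02 and 0 under an unadjusted p of 0.05.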
